A study of Mus musculus with 46 samples.

Results

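The comparison concerned the livers of 11 mice under dietary restriction (DR) and 11 mice fed ad libitum (AL), 22 of the 46 mice of the study, and neither group received rapamycin. The mice were chosen by their labelled regimen and by no measured value. All were male C57BL6/J mice, and livers were taken at 8 months of age. Per the study's methods the regimens began at 2 months and lasted 6 months. The labels give a 40% restriction, but the methods word the size of the ration in ways that differ from one another, so that the exact ration is uncertain. The DR mice received their daily ration each afternoon while the AL mice had food at all times. Less food and a fixed meal time therefore cannot be told apart in this design, and the hour of harvest is not given in the sources used here. The other mice were 12 given restricted food with 14 ppm rapamycin (Rapa + DR) and 12 fed ad libitum with 14 ppm rapamycin (Rapa). They shared no animal with the DR and AL groups and served to set the same change of diet beside them. They also entered the statistical fit, so that their spread is part of the standard errors and p-values of the changes below. RNA of whole liver tissue was hybridised to Illumina Mouse Ref8 arrays, with 1 array per mouse.

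The liver stores energy after a meal as glycogen and fat and releases glucose and ketone bodies between meals, and most enzymes of these routes respond to insulin, glucagon, glucocorticoids and the fatty acid receptor PPAR alpha. Its circadian clock is a loop in which the activators CLOCK and BMAL1 (gene symbol Arntl) switch on their own repressors, the PER, CRY and REV-ERB proteins, and the time of feeding is known to set the phase of this loop in the liver. Restricted mice on a single daily meal eat it quickly and then fast until the next, and male mouse liver carries a set of genes whose expression follows the pulses of growth hormone.

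A level is given here as the log2 of the array signal after each array had been brought to a common mean and spread, and a change is the DR minus the AL mean of these levels with its standard error (SE) from a limma fit. Of the 10093 genes tested, 1089 were called higher in DR livers (10.8%) and 751 lower (7.44%), where a call needed a Benjamini-Hochberg adjusted p under 0.05 from limma and group medians that differed by more than 15%. The change was above 2-fold for 43 of the genes called higher (0.426% of those tested) and for 38 of those called lower (0.376%). Every DR mouse lay above every AL mouse for 54 genes (0.535%) and below every AL mouse for 66 genes (0.654%). Among dim genes, with a mean level under 7, 2.17% were called higher and 1.78% lower, whereas among bright genes with a mean of 10 or more the shares were 13.2% and 19.5%. From 7 to 8 they were 17.8% and 8.59%, and from 8 to 10 they were 22.4% and 13.2%.

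The number of lower calls depended on how the arrays were scaled, and the number of higher calls did so far less. Per probe, 1599 were called higher and 947 lower, so that 62.8% of calls were higher. That share was 49.5% with quantile normalization (1359 higher, 1387 lower), 79.3% when arrays were centred and not divided by their SD (1818 higher, 476 lower), and 94.5% with no normalization between arrays (1663 higher, 96 lower). The median change of genes with a mean level over 10 was -0.09 as reported, 0.22 when arrays were centred and not divided by their SD, and 0.33 with no normalization. Of the 751 genes called lower, 311 (41.4%) were also called lower without division by the array SD, and 734 (97.7%) kept a negative change. Of the 1089 genes called higher, 1013 (93.0%) kept their call in that setting. The SD of log2 signal averaged 1.38 ± 0.09 on DR arrays and 1.28 ± 0.12 on AL arrays (SD, n = 11 each, permutation p = 0.048, adjusted p = 0.144 over 3 array measures). With the array SD as a covariate 1455 probes were higher and 1143 lower. In that setting 707 of the 751 genes called lower (94.1%) and 883 of the 1089 called higher (81.1%) kept their call. With quantile normalization 723 of the genes called lower (96.3%) and 857 of those called higher (78.7%) did so. Directions below refer to levels after division by the array SD, and where a named gene lost its call without that division the text says so. With no normalization at all 77 of the 751 lower calls (10.3%) were kept, and 661 genes (88.0%) kept a negative change.

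**Figure D1:**
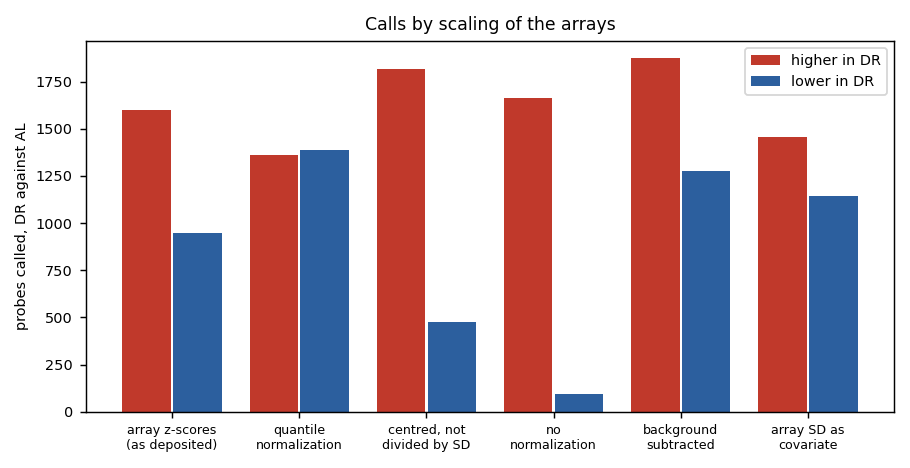
Number of probes called higher (red) and lower (blue) in DR than in AL livers under 6 ways of scaling or adjusting the 46 arrays. The count of probes called higher lies between 1359 and 1873, and the count called lower between 96 and 1387.

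The arrays of AL mouse 3 and of mice AL 11 and DR 11 differed from the rest. AL mouse 3 had the lowest estimated array weight of the 22 (0.359) and the lowest mean level of the cytosolic ribosomal protein genes, 10.37 against 10.74 in the next AL mouse. AL mouse 11 had the highest array SD of its group (1.52) and DR mouse 11 the lowest of its own (1.18). Leaving out each array in turn gave between 1407 and 1733 probes higher and between 843 and 1008 lower. Hepatocyte markers checked the labelled tissue: of 13 on the array 10 were above background on all 22 arrays, among them Ttr, Apoa1 and Serpina1a, while the albumin probe was dim and above background on 8 of them, with levels of 6.46 to 6.85 (median 6.70) in DR mice and 6.32 to 6.60 (median 6.46) in AL mice. It was the 1 hepatocyte marker of 11 tested that was called (change 0.19 ± 0.05, adjusted p = 0.0018, limma), a call lost without any one of DR mice 1, 5, 8, 9, 10 and 11 and without division by the array SD. In the list, 2 markers were lower without DR mouse 11 or AL mouse 11, and 4 were higher with quantile normalization, without division by the array SD and with no normalization.

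The largest increases joined genes of fat handling, the clock and metal binding. Levels of Cyp4a14, a fatty acid omega-hydroxylase and a classical target of PPAR alpha, ran from 11.85 to 14.26 (median 12.93) in DR mice and 6.97 to 11.94 (median 9.53) in AL mice. Of the 11 DR mice 10 exceeded every AL mouse, and the AL mice spread over a much wider range than the DR mice. The change was 3.37 ± 0.50 (adjusted p = 2.17e-06, limma), a 10.4-fold difference. Lpin1 encodes lipin 1, a phosphatidate phosphatase that also acts as a coactivator of PPAR alpha. Its levels were 9.22 to 10.89 (median 10.16) in DR mice and 7.30 to 8.66 (median 7.66) in AL mice, with no overlap between the groups and a change of 2.47 ± 0.19 (adjusted p = 3.25e-13, limma). Mt1, the metal-binding metallothionein 1, reached 11.00 to 14.02 (median 12.76) in DR mice and 8.85 to 11.11 (median 10.04) in AL mice. A single DR mouse lay within the AL range, and the change was 2.47 ± 0.61 (adjusted p = 0.0022, limma). That SE also carries the spread of the Rapa mice, whose Mt1 levels ran from 8.55 to 16.08.

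Several other increases separated the groups fully. Gpcpd1, which hydrolyses glycerophosphocholine, stood at 8.86 to 10.88 (median 10.17) in DR mice and 7.21 to 8.65 (median 7.91) in AL mice (change 2.27 ± 0.23, adjusted p = 5.42e-10). Coq10b, a coenzyme Q binding protein of mitochondria, stood at 8.87 to 10.09 (median 9.61) in DR mice and 7.28 to 8.49 (median 7.67) in AL mice (change 1.80 ± 0.16, adjusted p = 1.25e-11). Every DR mouse was above every AL mouse for both genes. The same held for Rdh9, a member of the retinol dehydrogenase family, with a change of 1.53 ± 0.12 (adjusted p = 1.09e-12), and for Pcsk4, a proprotein convertase, with a change of 1.50 ± 0.15 (adjusted p = 5.64e-10). Rgs16, which shortens signalling by G protein-coupled receptors, had levels of 8.68 to 12.20 (median 11.03) in DR mice and 6.67 to 9.93 (median 7.23) in AL mice. Only DR mouse 6 lay among the AL mice, and the change was 3.13 ± 0.48 (adjusted p = 3.84e-06). The kinase gene Pim3 (1.45 ± 0.18), the GM3 ganglioside synthase St3gal5 (1.35 ± 0.18) and the lysophospholipid transporter Mfsd2a (1.41 ± 0.30) were also called higher, with adjusted p-values of 4.11e-08, 4.03e-07 and 0.000523.

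The largest decreases came from genes of varied function, most of them fully separated. Tubb2b, a beta-tubulin, had levels of 7.75 to 8.44 (median 7.99) in DR mice and 8.97 to 11.37 (median 10.16) in AL mice. The DR mice lay within a narrow band below all AL mice, and the change was -2.14 ± 0.19 (adjusted p = 1.25e-11, limma). Serpina12, the secreted serpin vaspin, had levels of 7.69 to 10.73 (median 10.08) in DR mice and 10.81 to 12.79 (median 12.22) in AL mice, again with no overlap (change -2.08 ± 0.30, adjusted p = 1.21e-06). Aatk, a kinase first described in cells undergoing apoptosis, had levels of 7.70 to 8.53 (median 8.01) in DR mice and 9.85 to 10.68 (median 10.10) in AL mice, and the lowest AL mouse was above the highest DR mouse by more than the whole DR range (change -2.01 ± 0.19, adjusted p = 1.34e-10). Clstn3, a calsyntenin, changed by -1.92 ± 0.16, the adhesion protein gene Lrfn3 by -1.90 ± 0.20 and the water channel gene Aqp8 by -1.88 ± 0.28, with adjusted p-values of 3.04e-12, 9.04e-10 and 1.72e-06. None of these showed an overlap between DR and AL mice. Further genes with complete separation were Tmie, a channel component of inner-ear hair cells (-1.71 ± 0.16), Ddc, which makes dopamine and serotonin from their amino acid precursors (-1.62 ± 0.16), Pnkd (-1.58 ± 0.17), the secreted matrix protein gene Spon2 (-1.56 ± 0.19) and Lgals1, galectin 1 (-1.45 ± 0.22), with adjusted p-values between 5.79e-11 for Tmie and 3.38e-06 for Lgals1. Angptl8, a feeding-induced inhibitor of lipoprotein lipase, had a change of -1.62 ± 0.31 (adjusted p = 0.00013), and 9 of 11 DR mice lay below every AL mouse. The 9 genes of this paragraph other than Serpina12, Aqp8 and Angptl8 had DR medians between 7.27 for Lrfn3 and 9.39 for Pnkd, and a decrease towards the dim end is understated because background was not subtracted.

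**Figure D2:**
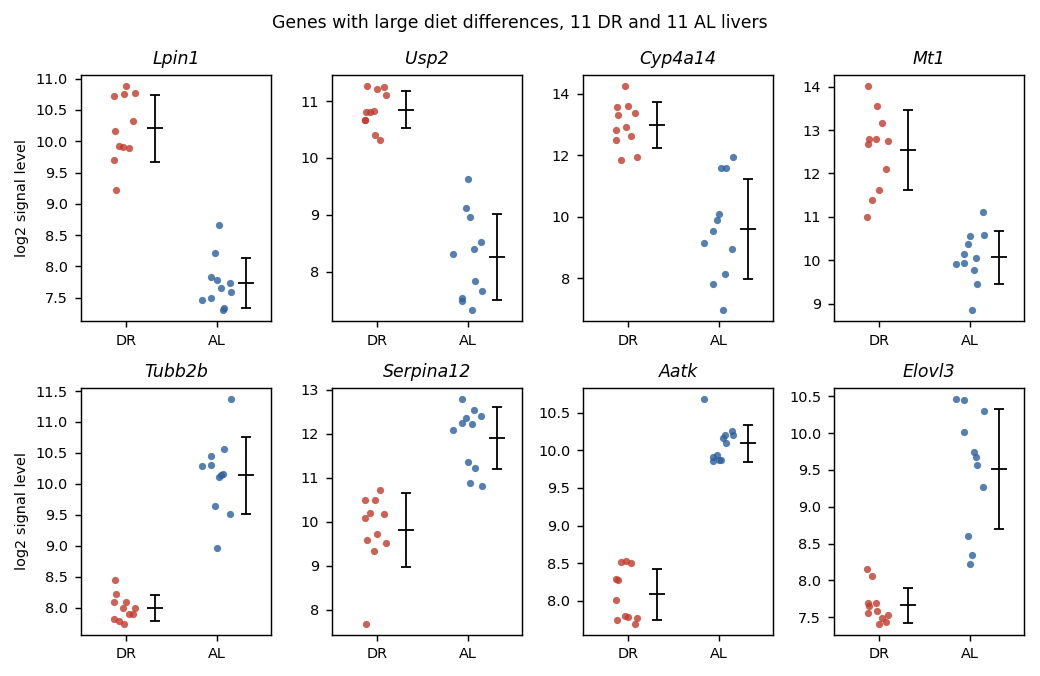
Log2 signal level of 8 genes in each of 11 DR livers (red) and 11 AL livers (blue), with the group mean and SD in black. Lpin1 and Usp2 are higher and Tubb2b, Serpina12, Aatk and Elovl3 lower in every DR mouse than in every AL mouse, while for Cyp4a14 and Mt1 a single DR mouse falls within the AL range.

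Clock genes were among the clearest differences. Of 8 tested repressors of the core loop 6 were called higher and none lower, with a median change of 0.63 over the 8, against -0.004 over all genes. Of 10 clock output genes 6 rose and 1 fell, with a median of 0.81. These counts were 6 to 7 and 6 when single arrays were left out. Promoter windows around the start sites of these genes were read from RefSeq (build GRCm38.p6), because the E-box CACGTG is the site that CLOCK and BMAL1 bind and the D-box TTATGNAA the site of DBP, TEF and NFIL3. Of the 11 repressor and output genes that were called higher and have a promoter in the table, 3 held the E-box (Ciart, Per1 and Tef) and 3 the D-box (Noct, Per1 and Per3) on either strand of the window, which ends shortly after the start. The E-box is held by 11.3% of the promoters of all tested genes and the D-box by 3.40%. Other motifs were read too. Of the 11 genes 2 held the STAT5 site TTCNNNGAA, against 8.59% of all tested genes. The RORE TAGGTCA (2.63%) and the glucocorticoid response element (0.452%) were held by 0 of the 11. Of 8 male-biased liver genes called lower, 2 held the D-box, 1 the RORE and 0 the E-box or STAT5 site. The glucocorticoid response element was held by 0.346% of the genes higher in DR. The stretches that hold the E-box or D-box are printed 5′ to 3′ on the strand of the gene with the motif in capitals.
Per1 E-box, chr11:69098761-69098810, plus strand: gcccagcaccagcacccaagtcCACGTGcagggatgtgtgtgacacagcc
Per1 D-box, chr11:69098903-69098948, plus strand: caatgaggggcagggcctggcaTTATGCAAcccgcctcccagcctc
Ciart with 3 E-boxes, chr3:95882245-95882366, minus strand: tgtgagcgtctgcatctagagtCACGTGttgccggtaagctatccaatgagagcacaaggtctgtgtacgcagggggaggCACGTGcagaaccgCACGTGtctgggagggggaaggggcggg
Tef first promoter, chr15:81802524-81802573, plus strand: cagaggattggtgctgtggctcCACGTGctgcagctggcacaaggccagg
Tef second promoter, chr15:81811254-81811303, plus strand: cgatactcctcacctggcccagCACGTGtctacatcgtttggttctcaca
Noct D-box on the opposite strand, chr3:51224331-51224382, plus strand: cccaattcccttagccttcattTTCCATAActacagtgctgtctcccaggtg
Per3 with 2 D-boxes, chr4:151044794-151044892, minus strand: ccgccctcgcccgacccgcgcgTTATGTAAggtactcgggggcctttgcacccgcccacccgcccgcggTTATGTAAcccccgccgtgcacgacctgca

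Among the repressors, Per1 had levels of 8.07 to 9.63 (median 8.90) in DR mice and 6.65 to 7.81 (median 7.19) in AL mice, and Ciart, which represses CLOCK and BMAL1, had levels of 8.07 to 9.30 (median 8.67) in DR mice and 6.46 to 7.41 (median 6.73) in AL mice. For both, whose E-boxes are printed above, every DR mouse exceeded every AL mouse. The changes were 1.66 ± 0.18 for Per1 (adjusted p = 2.7e-09, limma) and 1.75 ± 0.18 for Ciart (adjusted p = 4.62e-10). Per2 rose by 1.18 ± 0.20 (adjusted p = 2.51e-05), Nr1d2, the repressor REV-ERB beta, by 0.80 ± 0.12 (adjusted p = 2.32e-06), Cry2 by 0.45 ± 0.09 (adjusted p = 0.00014) and Per3 by 0.35 ± 0.09 (adjusted p = 0.00242). Nr1d1, which encodes REV-ERB alpha, was not called and had levels of 7.52 to 9.42 (median 8.70) in DR mice and 7.34 to 9.14 (median 8.55) in AL mice, a near complete overlap (change 0.06 ± 0.22, adjusted p = 0.895). Clock and Arntl moved the other way. Clock had levels of 7.30 to 8.30 (median 7.82) in DR mice and 8.04 to 9.07 (median 8.52) in AL mice, with 9 of 11 DR mice below every AL mouse (change -0.67 ± 0.13, adjusted p = 0.00011), and Arntl changed by -0.32 ± 0.09 (adjusted p = 0.00904) near the background of the array. Rora, an activator of Arntl, was higher, with a change of 0.56 ± 0.16 (adjusted p = 0.0074).

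The output genes follow the clock and control metabolism in turn. Usp2, a deubiquitinase, had levels of 10.32 to 11.27 (median 10.81) in DR mice and 7.33 to 9.62 (median 8.32) in AL mice, with every DR mouse above every AL mouse (change 2.59 ± 0.23, adjusted p = 2.15e-11). Dbp, a D-box activator and one of the most rhythmic transcripts of the liver, had levels of 12.02 to 13.10 (median 12.57) in DR mice and 7.27 to 12.91 (median 9.67) in AL mice. All DR mice lay above the AL median, but only 2 exceeded the highest AL mouse, and the SD over mice was 0.35 in DR livers and 1.88 in AL livers (change 2.50 ± 0.55, adjusted p = 0.000648). Tef, a related activator, showed the same unequal spread, with an SD of 0.15 in DR livers and 0.58 in AL livers and a change of 1.23 ± 0.16 (adjusted p = 2.19e-07). Upp2, a uridine phosphorylase, rose by 1.97 ± 0.27 (adjusted p = 4.35e-07), Noct, the rhythmic phosphatase nocturnin, by 1.01 ± 0.25 (adjusted p = 0.00251) and Nampt, which makes the NAD precursor, by 0.61 ± 0.08 (adjusted p = 5.64e-07). Nfil3, a repressor at the D-box, was lower, with levels of 8.07 to 9.51 (median 8.46) in DR mice and 9.17 to 10.92 (median 9.97) in AL mice and 9 of 11 DR mice below every AL mouse (change -1.24 ± 0.26, adjusted p = 0.000316). The AL mice differed among themselves. AL mouse 6 held the lowest level of Dbp, Tef, Per2 and Nr1d2 in its group and the highest of Nfil3, while AL mouse 1 held the highest level of Dbp, Usp2 and Nr1d2 and the lowest of Clock, Arntl and Nfil3. AL mice 1, 2 and 3 stood together nearest the DR mice for Dbp, Tef, Usp2, Ciart, Clock and Nfil3. Their Dbp levels were 12.91, 11.93 and 12.37, against 11.08 or less in the other AL mice. For Nfil3 they were 9.17, 9.29 and 9.22, against 9.59 or more. Elovl3, described below, divided the AL mice in the same way. What sets these 3 mice apart was not tested.

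**Figure D3:**
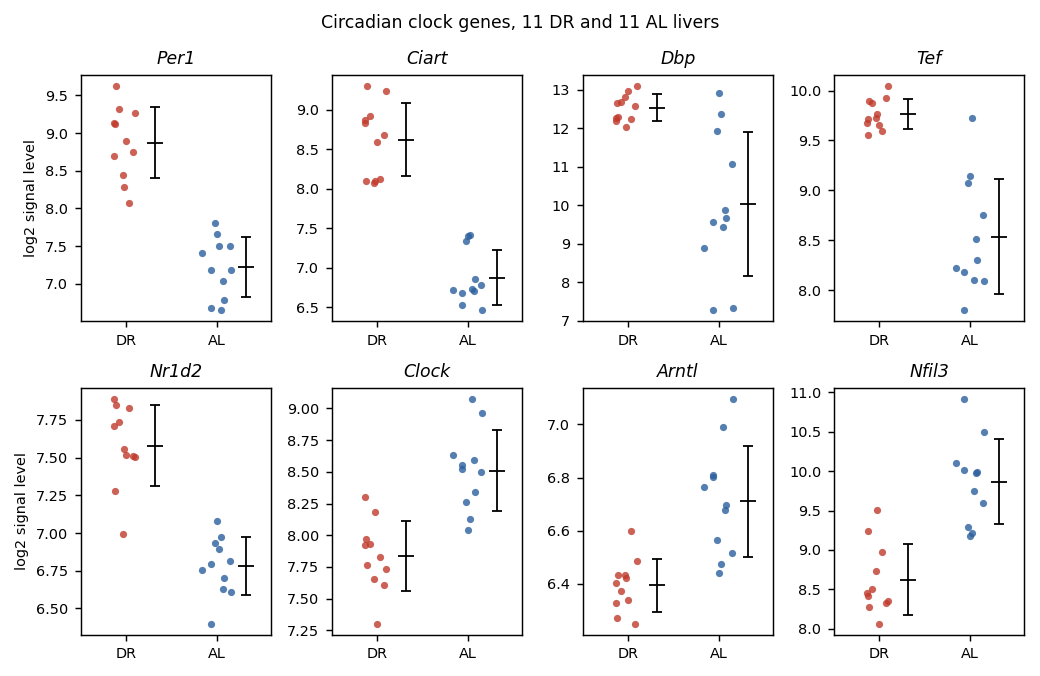
Log2 signal level of 8 clock genes in each of 11 DR livers (red) and 11 AL livers (blue), with the group mean and SD in black. Per1 and Ciart do not overlap between the groups, Clock, Arntl and Nfil3 are lower in DR livers, and the 11 AL values of Dbp spread from 7.27 to 12.91 where the DR values lie between 12.02 and 13.10.

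Of 12 omega-hydroxylase and acyl-CoA thioesterase genes 6 were higher and 3 lower (median change 0.33), with 6 higher and 0 lower without division by the array SD. Beside Cyp4a14, the thioesterase gene Acot3 had levels of 8.29 to 11.03 (median 9.10) in DR mice and 6.42 to 8.43 (median 6.94) in AL mice, with 10 of 11 DR mice above every AL mouse (change 2.41 ± 0.30, adjusted p = 6.27e-08, limma). Cyp4a31 rose by 1.76 ± 0.34, Acot1 by 1.10 ± 0.29 and Acot4 by 0.84 ± 0.15 (adjusted p = 0.000119, 0.00461 and 5.16e-05), and probes to such close relatives can share targets. Cyp4a12a, the male form of the same hydroxylase family, was lower (change -0.94 ± 0.26, adjusted p = 0.00695), a call that was lost without division by the array SD. Of 17 mitochondrial beta-oxidation genes 7 were higher, among them Acaa2, a thiolase (0.92 ± 0.24, adjusted p = 0.00344), Eci2, an enoyl-CoA isomerase (0.84 ± 0.14, adjusted p = 1.68e-05), Acadl, the long-chain dehydrogenase (0.50 ± 0.10, adjusted p = 0.000358), Hadhb, a subunit of the trifunctional protein (0.49 ± 0.12, adjusted p = 0.00129), and Acadm, the medium-chain dehydrogenase (0.57 ± 0.13, adjusted p = 0.00138). The list also had 3 lower genes, which became 1 without any one of DR mice 1, 2, 3, 5, 8 and 9 or AL mice 3, 5, 6 and 8, and 0 without division by the array SD. Of 13 genes of peroxisomal fatty acid oxidation 1 was higher and 3 were lower, where 4 were higher and 0 lower without that division, and 1 was lower without any one of DR mice 1, 2 and 3 or AL mice 3, 4 and 8. There, Ehhadh, the bifunctional enzyme, was higher (0.60 ± 0.12, adjusted p = 0.000333). Acox2, which shortens branched fatty acids and bile acid precursors, was lower in every DR mouse than in any AL mouse (-0.72 ± 0.12, adjusted p = 1.1e-05), but lost its call without division by the array SD.

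Fasting-responsive targets of PPAR alpha did not move as one, with 5 of 13 higher, 3 lower and a median of 0.03. Lpin2, the second lipin, rose by 0.99 ± 0.12 (adjusted p = 2.08e-08), Txnip, which restrains glucose uptake, by 0.87 ± 0.13 (adjusted p = 2.81e-06) and Angptl4, an inhibitor of lipoprotein lipase, by 0.77 ± 0.20 (adjusted p = 0.00376). The lower genes were Pdk4, a kinase that inactivates pyruvate dehydrogenase, and G0s2 and Cidec. Pdk4 changed by -0.45 ± 0.16 (adjusted p = 0.0375), a call lost without any one of 7 single arrays, with no normalization and without the filter on dim probes. G0s2, which blocks the lipase ATGL, changed by -1.28 ± 0.34 (adjusted p = 0.00479) and Cidec, which enlarges lipid droplets, by -0.51 ± 0.15 (adjusted p = 0.0107). Bdh1, which interconverts the ketone bodies, was higher (0.55 ± 0.15, adjusted p = 0.00507).

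The called genes of fat synthesis were all lower. Of 18 genes of fatty acid and triglyceride synthesis none was called higher and 7 were called lower, with a median change of -0.38, and the mean level of the list was below the AL median in all 11 DR mice. The median kept its sign under each scaling, at -0.08 with no normalization, but 1 of the 7 calls was left without division by the array SD. Acly, which supplies cytosolic acetyl-CoA, had levels of 10.72 to 12.19 (median 11.24) in DR mice and 11.73 to 12.89 (median 12.32) in AL mice (change -0.98 ± 0.20, adjusted p = 0.000209, limma). Agpat2, an acyltransferase of triglyceride assembly, had levels of 9.70 to 10.40 (median 9.96) in DR mice and 10.57 to 11.09 (median 10.90) in AL mice, with no overlap (change -0.88 ± 0.11, adjusted p = 2.7e-08). The groups overlapped for Acly but not for Agpat2, whose call also held without division by the array SD. Scd1, the stearoyl-CoA desaturase, changed by -0.83 ± 0.22 (adjusted p = 0.00443), Slc25a1, the citrate carrier, by -0.58 ± 0.09 (adjusted p = 3.48e-06), and Mlxipl, the carbohydrate-responsive factor ChREBP, by -0.53 ± 0.16 (adjusted p = 0.0118). Acly, Scd1, Slc25a1 and Mlxipl lost their calls without that division.

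Of 17 genes of cholesterol synthesis and uptake 5 were lower and 1 higher, with a median of -0.12 that turned to 0.01 without division by the array SD and 0.11 with no normalization. Mvd, a decarboxylase of the mevalonate route, had levels -0.99 ± 0.17 apart (adjusted p = 2.2e-05), Hmgcs1, the cytosolic HMG-CoA synthase, -0.98 ± 0.20 (adjusted p = 0.000243), Fdps, which makes farnesyl diphosphate, -0.80 ± 0.18 (adjusted p = 0.000649) and Lss, which closes the sterol rings, -0.75 ± 0.21 (adjusted p = 0.00599). Only the call of Mvd among these 4 held without division by the array SD. Cyp51, the lanosterol demethylase, was higher, with a change of 0.89 ± 0.21 (adjusted p = 0.00118). Sterol export was higher as well: Abcg5 had levels of 11.44 to 12.14 (median 11.80) in DR mice and 9.74 to 11.74 (median 10.62) in AL mice (change 1.09 ± 0.15, adjusted p = 6.8e-07) and its partner Abcg8 a change of 0.73 ± 0.19 (adjusted p = 0.00493). Abcg5 was above the AL median in all 11 DR mice. Cyp7a1, the rate-limiting enzyme of bile acid synthesis, had levels of 10.53 to 12.14 (median 11.07) in DR mice and 9.20 to 10.95 (median 10.62) in AL mice (change 0.92 ± 0.32, adjusted p = 0.0346), a call that was lost without DR mouse 8, 9 or 11 or AL mouse 3, 4 or 10, with background subtracted, without the filter on dim probes and with the array SD as a covariate. These were the 3 genes called of 12 in bile acid synthesis and transport, a count that was 5 without DR mouse 4 or 6, and 1 gene was lower without DR mouse 6 or 11 or AL mouse 10 or 11.

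For glucose production, 5 of 12 gluconeogenic genes were higher and 1 was lower (median 0.08). Pck1, the cytosolic carboxykinase that commits carbon to glucose, had levels of 7.22 to 8.32 (median 7.50) in DR mice and 6.59 to 6.99 (median 6.73) in AL mice. Every DR mouse was above every AL mouse (change 0.76 ± 0.16, adjusted p = 0.000541, limma). The same separation was seen for Foxo1, the insulin-restrained factor that activates Pck1, with levels of 7.72 to 8.09 (median 7.88) in DR mice and 7.05 to 7.69 (median 7.33) in AL mice (change 0.57 ± 0.10, adjusted p = 2.28e-05). Its coactivator gene Ppargc1a rose by 0.56 ± 0.13 (adjusted p = 0.00122), Got1, the cytosolic aspartate aminotransferase, by 0.77 ± 0.14 (adjusted p = 7.83e-05) and Slc37a4, the glucose 6-phosphate transporter, by 0.51 ± 0.13 (adjusted p = 0.0028). Gpd1, glycerol 3-phosphate dehydrogenase, was lower (-0.81 ± 0.13, adjusted p = 1.16e-05). The count of lower genes in the list was 2 or 3 without DR mouse 7, 8, 10 or 11 or AL mouse 7, 10 or 11.

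Of 11 glycolytic genes 3 were lower and 1 higher, with 0 lower without division by the array SD. The liver glucose transporter Slc2a2 rose by 0.84 ± 0.20 (adjusted p = 0.00144), while Gapdh changed by -0.72 ± 0.12 (adjusted p = 8.2e-06) and Tpi1 by -0.66 ± 0.14 (adjusted p = 0.000593), and both of these calls were lost without division by the array SD. In glycogen metabolism 2 of 11 genes were higher and 3 lower. Gys2, the liver glycogen synthase, had levels of 7.83 to 9.18 (median 8.62) in DR mice and 6.71 to 8.94 (median 7.17) in AL mice (change 1.20 ± 0.20, adjusted p = 9.41e-06). Pygl, the liver phosphorylase that breaks glycogen down, had levels of 11.90 to 12.51 (median 12.05) in DR mice and 12.52 to 12.93 (median 12.80) in AL mice (change -0.63 ± 0.10, adjusted p = 7e-06). Synthase and phosphorylase thus moved in opposite directions, and Pygl did not overlap between the groups, although its call was lost without division by the array SD. Ugp2, which makes the glucosyl donor for glycogen, rose by 0.50 ± 0.13 (adjusted p = 0.00256), whereas the protein phosphatase subunits that activate the synthase were lower, Ppp1r3c by -1.40 ± 0.25 (adjusted p = 5.18e-05) and Ppp1r3b by -0.60 ± 0.17 (adjusted p = 0.00668). At the entry to the tricarboxylic acid cycle, the kinase gene Pdk1, which inactivates pyruvate dehydrogenase, rose by 0.80 ± 0.14 (adjusted p = 3.77e-05) and the dehydrogenase subunit Pdhb by 0.66 ± 0.12 (adjusted p = 3.01e-05).

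The called genes among the male-biased liver genes were all lower. Of 26 tested 13 were called lower and none higher, with a median change of -0.67 that kept its sign under each scaling, at -0.22 with no normalization, and leaving out single arrays gave 11 to 16 lower. The count was 5 without division by the array SD. The mean level of the list was below the AL median in all 11 DR mice. Elovl3, an elongase of very long chain fatty acids, had levels of 7.42 to 8.15 (median 7.58) in DR mice and 8.22 to 10.46 (median 9.67) in AL mice, with no overlap (change -1.85 ± 0.27, adjusted p = 1.04e-06, limma). Selenbp2, a selenium-binding protein, had levels of 9.14 to 10.29 (median 9.69) in DR mice and 9.88 to 12.91 (median 11.72) in AL mice, with 8 of 11 DR mice below every AL mouse (change -1.81 ± 0.31, adjusted p = 2.75e-05). Mup21, a major urinary protein, changed by -1.12 ± 0.23 (adjusted p = 0.000283), Mup2 by -0.90 ± 0.21 (adjusted p = 0.00142) and C9, the last component of the complement pore, by -1.04 ± 0.16 (adjusted p = 3.11e-06), and probes to major urinary proteins may bind several members of that family. Selenbp2 and C9 were also called without that division, and Mup2 and Mup21 were not. Of 15 female-biased genes 5 were higher and 1 was lower (Cyp2b10, described last, a call lost without that division), with Cyp4a14 and Acot3 among the higher, and a median of 0.03 over the list. Cyp2a5, a coumarin hydroxylase, had levels of 13.08 to 14.19 (median 13.70) in DR mice and 11.15 to 13.76 (median 12.51) in AL mice (change 1.20 ± 0.24, adjusted p = 0.000227), and Cyp2b9, a steroid hydroxylase of female liver, had levels of 6.64 to 10.29 (median 8.66) in DR mice and 6.35 to 9.85 (median 6.64) in AL mice (change 1.38 ± 0.41, adjusted p = 0.0125). The Cyp2b9 ranges overlapped, and AL mouse 11 reached 9.85 where the next AL mouse stood at 7.26.

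In the growth hormone axis 3 of 14 genes were higher and 2 lower. Igfbp2, a binding protein that holds insulin-like growth factors in the circulation, had levels of 10.40 to 11.93 (median 11.52) in DR mice and 8.60 to 10.43 (median 9.81) in AL mice, with 10 of 11 DR mice above every AL mouse (change 1.73 ± 0.20, adjusted p = 6.65e-09). Socs2, a feedback inhibitor of the growth hormone receptor, rose by 1.10 ± 0.32 (adjusted p = 0.00899) and Jak2, the kinase of that receptor, by 0.35 ± 0.08 (adjusted p = 0.000634). The receptor gene Ghr changed by -0.44 ± 0.10 (adjusted p = 0.00147), a call lost without division by the array SD and with quantile normalization. Its change was 0.01 with no normalization. Stat5a, a factor the receptor activates, changed by -0.42 ± 0.07 (adjusted p = 2.61e-05). Of 25 genes of insulin and nutrient signalling 7 were higher and 2 lower. Prkaa2, which encodes a catalytic chain of the energy sensor AMPK, rose by 0.62 ± 0.13 (adjusted p = 0.000367), Rheb, the activator of mTOR complex 1, by 0.54 ± 0.13 (adjusted p = 0.0016) and Rictor, which defines mTOR complex 2, by 0.52 ± 0.11 (adjusted p = 0.000418), while Mlst8, a subunit of both complexes, was lower (-0.41 ± 0.07, adjusted p = 2.28e-05).

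**Figure D4:**
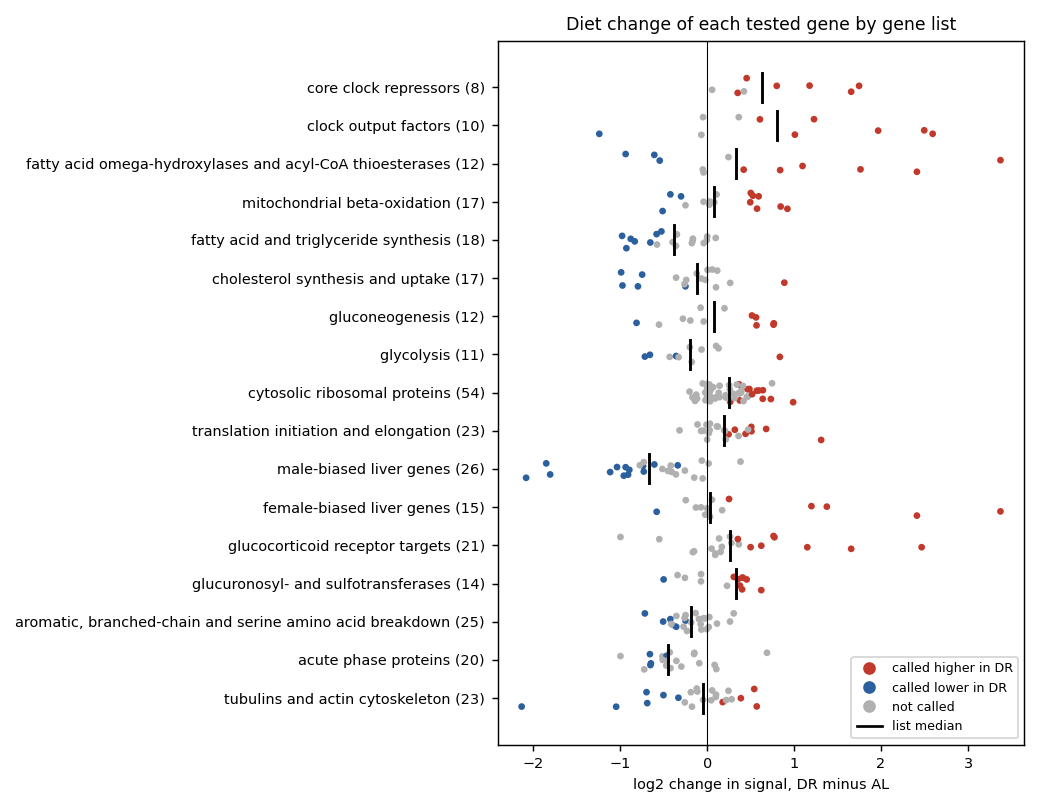
Log2 change (DR minus AL) of each tested gene in 17 gene lists, with the number of tested genes in brackets, the list median as a black bar, and colour for the call. The clock repressors have 6 genes called higher and none lower, and the male-biased genes 13 lower and none higher.

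Targets of the glucocorticoid receptor were higher in 8 of 21 cases and lower in none, with a median of 0.26. The count was 6 without DR mouse 5 or 11, and 1 target was lower without DR mouse 5 or 11 or any of AL mice 1, 2, 3 and 4. Besides Mt1, Per1, Pck1 and Angptl4, Fkbp5, a chaperone of the receptor and one of its most responsive targets, had levels of 7.32 to 8.87 (median 7.93) in DR mice and 6.56 to 7.34 (median 6.81) in AL mice (change 1.15 ± 0.20, adjusted p = 2.07e-05, limma). DR mice lay above the AL median in 11 of 11 cases. The kinase gene Sgk1 rose by 0.62 ± 0.15 (adjusted p = 0.0019). Among 16 integrated stress response genes 5 were higher and 1 lower. Cebpb, a factor of the fasting and acute response, had levels of 11.11 to 12.05 (median 11.46) in DR mice and 9.66 to 11.26 (median 10.12) in AL mice (change 1.34 ± 0.15, adjusted p = 5.08e-09). Chac1, which degrades glutathione, rose by 1.01 ± 0.21 (adjusted p = 0.000302) and Atf4, the central factor of this response, by 0.54 ± 0.11 (adjusted p = 0.000229), whereas Atf5 was lower (-0.62 ± 0.12, adjusted p = 0.000138), a call lost without division by the array SD.

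Cold-inducible RNA-binding proteins were higher. Rbm3 had levels of 7.84 to 9.26 (median 8.49) in DR mice and 6.55 to 7.68 (median 6.88) in AL mice, with every DR mouse above every AL mouse (change 1.52 ± 0.15, adjusted p = 1.33e-10, limma), and Cirbp changed by 0.68 ± 0.13 (adjusted p = 8.64e-05). They were 2 of the 3 genes called, all higher, among 13 heat shock and cold-inducible genes, and the third was the mitochondrial chaperonin Hspd1 (0.29 ± 0.08, adjusted p = 0.00525). Of 16 chaperones and folding enzymes of the endoplasmic reticulum 2 were called, both higher, with a median of -0.09 (0.08 without division by the array SD). That count was 1 without DR mouse 4 or 6 or AL mouse 6, and 1 gene was lower without AL mouse 11. In the heat shock and cold-inducible list 2 genes were lower without DR mouse 6 and 1 without DR mouse 11 or AL mouse 3.

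In the protein synthesis machinery 12 of 54 tested genes for proteins of the cytosolic ribosome rose and none fell, with a median of 0.25. The count was 7 without DR mouse 4, the mouse with the highest mean of the list, and 8 without AL mouse 3, the mouse with the lowest, and 25 without division by the array SD. Rps7, of the small subunit, had levels of 11.65 to 12.49 (median 11.92) in DR mice and 10.19 to 11.53 (median 10.99) in AL mice, with no overlap (change 0.99 ± 0.13, adjusted p = 3.42e-07, limma). Rpl24 rose by 0.73 ± 0.22 (adjusted p = 0.0125) and Rps6, the substrate of S6 kinase, by 0.64 ± 0.13 (adjusted p = 0.000162). Of 23 initiation and elongation factors 7 were higher and none lower, with 12 higher without division by the array SD and 1 lower without DR or AL mouse 11. Eif4ebp3, an inhibitor of cap-dependent initiation, had levels of 7.40 to 9.00 (median 7.95) in DR mice and 6.52 to 7.28 (median 6.83) in AL mice, with every DR mouse above every AL mouse (change 1.31 ± 0.19, adjusted p = 1.04e-06), and the elongation factor Eef1b2 changed by 0.68 ± 0.13 (adjusted p = 0.000102). Of 69 mitochondrial ribosomal genes 10 were higher and 3 lower, 11 and 6 without AL mouse 3, and 15 and 1 without division by the array SD. Of all genes with a mean level from 8 to 10, 22.4% were called higher and 13.2% lower. Mrpl18 and Mrpl48, of the large subunit, were higher in every DR mouse than in any AL mouse (0.59 ± 0.08, adjusted p = 3.13e-07, and 0.61 ± 0.10, adjusted p = 9.75e-06).

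Among respiratory genes, 5 of 33 in complex I were higher and 1 lower, 5 of 22 in complexes II to IV and cytochrome c were higher and 1 lower, and 2 of 14 ATP synthase genes were higher. Of all genes with a mean level of 10 or more 13.2% were called higher, and the complex I and ATP synthase counts lie near that share. The lower count for complex I was 2 without DR mouse 7 or 11 or AL mouse 1, 3 or 11. Without division by the array SD 8 genes of complexes II to IV and 5 of the ATP synthase were higher, and with quantile normalization 6 and 4. Ndufc2, Ndufs4 and Ndufa6 of complex I changed by 0.80 ± 0.20, 0.72 ± 0.14 and 0.70 ± 0.18 (adjusted p = 0.00273, 0.000191 and 0.003). Atp5pb, a subunit of the ATP synthase stalk, had levels of 9.06 to 10.54 (median 9.71) in DR mice and 7.95 to 9.66 (median 8.38) in AL mice (change 1.22 ± 0.19, adjusted p = 6.67e-06), with all DR mice above the AL median. The mitochondrial protease subunit gene Clpx was lower (-1.23 ± 0.19, adjusted p = 5.05e-06).

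Conjugation enzymes were higher more often than lower. Of 14 glucuronosyl- and sulfotransferases 8 were higher and 1 lower (median 0.33), with 5 higher without DR mouse 5 or 8 or AL mouse 2, 5 or 6 and with 2 lower without AL mouse 6 or 9. Sult1d1, a sulfotransferase, rose by 0.62 ± 0.13 (adjusted p = 0.000429) and Sult5a1 changed by -0.50 ± 0.09 (adjusted p = 5.48e-05). Among 20 glutathione transferases 4 were higher and 3 lower. Gstt2 had levels of 9.91 to 10.67 (median 10.37) in DR mice and 8.34 to 9.53 (median 8.92) in AL mice, with no overlap (change 1.27 ± 0.11, adjusted p = 2.4e-11, limma), Gsto1 rose by 0.57 ± 0.08 (adjusted p = 1.17e-06) and Gstp2 was lower (-0.83 ± 0.25, adjusted p = 0.0129). The lower count of this list was 1 without AL mouse 6 or 8 and 5 without AL mouse 7, and 1 without division by the array SD. P450 enzymes of families 1 to 3 and their receptors had 6 higher and 6 lower of 26, but 10 higher and 2 lower without division by the array SD and 10 and 0 with no normalization. Cyp3a11, the main steroid and drug hydroxylase of mouse liver, rose by 0.97 ± 0.29 (adjusted p = 0.0107) and Cyp3a25 by 1.00 ± 0.21 (adjusted p = 0.000342). Nr1i3, the xenobiotic receptor CAR, rose by 0.66 ± 0.11 (adjusted p = 2.06e-05). Cyp2c70, which makes muricholic bile acids, was lower, with levels of 12.41 to 13.08 (median 12.58) in DR mice and 12.57 to 14.22 (median 13.87) in AL mice (change -1.06 ± 0.17, adjusted p = 1e-05).

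Among 25 genes of aromatic, branched-chain and serine amino acid breakdown 5 were lower and none higher, 3 without AL mouse 3 or 8 and 0 without division by the array SD or with no normalization, and the median of -0.18 turned to 0.02 without that division. Haao, an oxygenase of tryptophan breakdown, was lower by the fit (-0.72 ± 0.12, adjusted p = 1.45e-05) but not without that division. Of 17 methionine and one-carbon genes 3 were lower and 1 higher, and 1 was lower without division by the array SD. Among all genes with a mean level of 10 or more 19.5% were called lower, and the lower counts of both lists lie near that share. Cbs, the first enzyme from homocysteine to cysteine, changed by -0.71 ± 0.14 (adjusted p = 0.000162) and Cth, the second, by 0.89 ± 0.19 (adjusted p = 0.000535), so that the neighbours moved in opposite directions, although Cbs lost its call without that division.

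Counts of the secreted defence lists can be set beside the 19.5% of all genes with a mean level of 10 or more that were called lower. Of 20 acute phase genes 4 were lower and none higher, with a median of -0.45 that turned to 0.08 with no normalization. The count was 2 without AL mouse 1, which had the highest mean of the list (11.94 against 11.56 in the next AL mouse), and 8 without AL mouse 11, which had the lowest. None was called without division by the array SD. Of 34 complement and coagulation genes 7 were lower and 4 higher, and 2 were lower without that division. C9 had levels of 11.56 to 12.38 (median 11.85) in DR mice and 12.17 to 13.27 (median 13.07) in AL mice, C6, another component of the pore, changed by -0.91 ± 0.19 (adjusted p = 0.000264) and C4b by -0.82 ± 0.15 (adjusted p = 3.47e-05). The anticoagulant gene Pros1, protein S, was higher (0.62 ± 0.10, adjusted p = 5.65e-06). Only C9 and C4b of the 3 complement genes named kept their call without it.

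In the cytoskeleton list 6 of 23 genes were lower and 4 higher. Besides Tubb2b, Tubb4b had levels of 9.96 to 10.49 (median 10.08) in DR mice and 10.66 to 11.71 (median 11.09) in AL mice (change -1.05 ± 0.10, adjusted p = 1.94e-10, limma) and Tuba1b, an alpha-tubulin, had levels of 11.22 to 11.62 (median 11.40) in DR mice and 11.70 to 12.54 (median 12.11) in AL mice (change -0.70 ± 0.09, adjusted p = 1.87e-07). Both were lower in every DR mouse than in any AL mouse, although Tuba1b lost its call without division by the array SD. Tubg1, the gamma-tubulin that nucleates microtubules, changed by -0.50 ± 0.07 (adjusted p = 1.77e-06). Arpc1a, a subunit of the actin-nucleating Arp2/3 complex, was higher (0.54 ± 0.10, adjusted p = 6.47e-05), as was Pfn1, the actin-binding profilin (0.57 ± 0.15, adjusted p = 0.00565).

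Few markers of other cells of the liver were called. In bulk tissue fewer cells of a type and less RNA per cell cannot be told apart. Of 14 Kupffer cell and macrophage markers 2 were lower and none higher, and the mean level of the list ran from 7.04 to 7.82 (median 7.63) in DR mice and from 7.56 to 8.10 (median 7.72) in AL mice. DR mouse 11 had the lowest mean, and 1 marker was lower without it or without AL mouse 4. Clec4f, a Kupffer cell lectin, was lower (-0.54 ± 0.13, adjusted p = 0.00184). Of 13 endothelial markers 2 were higher, with 1 lower and 2 to 3 higher without any one of DR mice 1, 3 and 9 or AL mice 2, 3 and 7, and Fcgr2b, a receptor of the sinusoidal endothelium, changed by 0.44 ± 0.11 (adjusted p = 0.00189). None of 12 stellate cell, 3 bile duct, 7 lymphocyte and 7 neutrophil markers was called, and the T cell markers Cd3d and Cd8a and the neutrophil markers Ngp and Camp were above background on none of the 22 arrays. Their summed signals overlapped between the groups, for lymphocyte markers 591 to 651 in DR and 590 to 642 in AL livers. Of the red cell markers, Alas2, the erythroid first enzyme of haem synthesis, had levels of 9.72 to 10.80 (median 10.41) in DR mice and 11.00 to 11.97 (median 11.36) in AL mice, with no overlap (change -1.04 ± 0.13, adjusted p = 1.24e-07), while 3 further red cell genes were not called. The part of other cell types in the differences above was not tested.

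The 11 lists not described in full were peroxisomal oxidation (counted above), ketone synthesis, lipoproteins, the tricarboxylic acid cycle, the proteasome, autophagy, metal handling, antioxidants, urea synthesis, interferon response and cell cycle. They held 216 tested genes in all, of which 30 were called higher and 27 lower, with list medians between -0.27 and 0.41.

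The same change of diet could be read a second time in mice given rapamycin, since no animal was shared. Rapa + DR livers had 1178 genes called higher (11.7%) and 683 called lower (6.77%) than Rapa livers. Of the 1089 genes higher in DR than AL livers, 504 (46.3%) were also called higher in Rapa + DR than Rapa livers, 958 (88.0%) had the same sign and 9 were called the opposite way. Of the 751 genes lower in DR livers, 379 (50.5%) were also called lower in the mice given rapamycin, 672 (89.5%) had the same sign and 5 were called the opposite way. Across all 10093 genes, which are not independent replicates, the changes correlated at 0.728, and 69.8% had the same sign. The median change of the genes called higher was 0.39 without and 0.23 with rapamycin, and that of the genes called lower -0.41 and -0.26. Genes called higher in Rapa + DR than Rapa livers had medians of 0.22 without and 0.37 with rapamycin, and those called lower -0.34 and -0.41. In each case the change was larger in the pair of groups that had chosen the genes.

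Some named genes recurred in the mice given rapamycin and others did not. Acaa2, Cyp3a11 and Atf4, higher in DR than AL livers, changed by -0.11, 0.07 and 0.02 between Rapa + DR and Rapa livers. These were not called (adjusted p = 0.762, 0.876 and 0.885, limma). Lgals1, lower in DR livers, changed by -0.45 there and was not called either (adjusted p = 0.104). Lpin1 differed by 2.47 ± 0.19 between DR and AL livers and by 2.52 ± 0.18 between Rapa + DR and Rapa livers (adjusted p = 1.65e-14 for the second, limma), Usp2 by 2.59 ± 0.23 and 3.09 ± 0.22 (adjusted p = 1.62e-14) and Tubb2b by -2.14 ± 0.19 and -2.67 ± 0.18 (adjusted p = 1.99e-15). Among Rapa + DR mice Usp2 levels were 10.30 to 11.16 (median 10.89) and among Rapa mice 6.93 to 9.63 (median 7.59), again without overlap. The difference of the diet changes, Rapa + DR minus Rapa against DR minus AL, was itself called for 255 genes (2.53%) at an adjusted p under 0.05, for 75 of the genes higher and 44 of those lower in DR livers. Rps7 was among them, with a change of 0.99 ± 0.13 without rapamycin and levels of 11.49 to 12.51 (median 11.98) in Rapa + DR mice and 11.16 to 12.88 (median 12.00) in Rapa mice (adjusted p = 0.985). Creld2, a protein of the endoplasmic reticulum induced by folding stress, changed by -0.22 ± 0.27 without rapamycin (adjusted p = 0.628) and by -1.56 ± 0.26 with it (adjusted p = 9.73e-06). Cyp2b10, an inducible drug-metabolizing enzyme, changed by -0.58 ± 0.21 without rapamycin (adjusted p = 0.0413, a call lost without any one of 9 single arrays, DR mice 1, 7, 9 and 11 and AL mice 2, 3, 4, 8 and 11, and also without division by the array SD, with no normalization, with background subtracted, without the filter on dim probes and with array weights) and by 0.75 ± 0.20 with it (adjusted p = 0.00458). Of the endoplasmic reticulum list, 11 of 16 genes were called lower and 1 higher in Rapa + DR than Rapa livers, where 2 were higher and none lower in DR than AL livers, and the difference itself was called for 4. The counts of called differences also moved with scaling, from 192 probes higher and 176 lower as reported to 42 and 10 without division by the array SD.

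**Figure D5:**
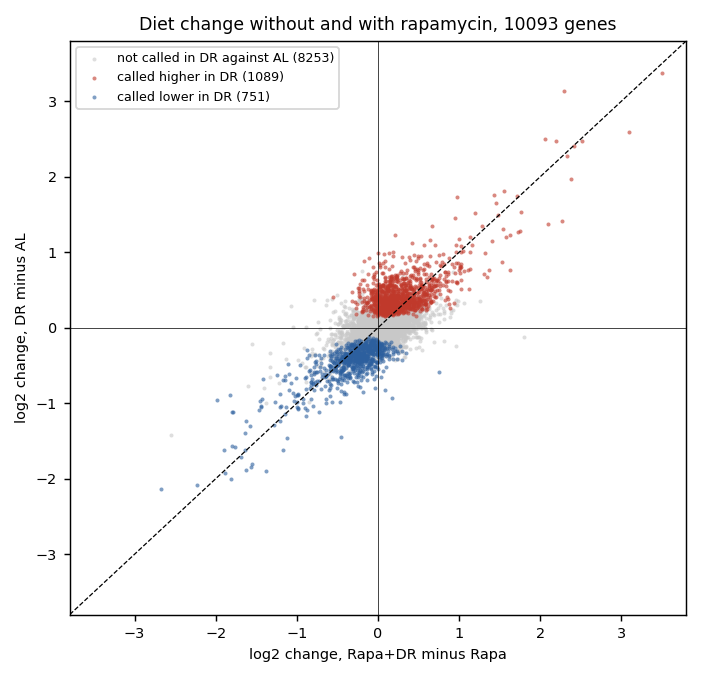
Log2 change of each of 10093 genes with diet in mice without rapamycin (DR minus AL, vertical) and in mice with rapamycin (Rapa + DR minus Rapa, horizontal), with genes called higher (red) or lower (blue) in DR than AL livers and the line of equal change dashed. The correlation across genes is 0.728.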

How the data were processed

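Liver RNA of 46 mice was measured on Illumina Mouse Ref8 arrays. Per the study's methods the authors took the log2 of each signal and deposited z-scores, which are each array's values minus their mean and divided by their SD. Since the scanner reports signals in steps of 0.1, the mean and SD of each array were recovered from those steps, and the score of every probe was put on a common log2 scale with the average SD (1.34) and mean (7.05) of the arrays. The deposited scores carry no background subtraction. A second table of signals before normalization, with 92 columns headed by numbers that match no label, was not used.

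A background limit was set per array from a normal curve fitted to the probes below the mode of its signals, at an upper tail of 0.02, and 14435 of 25697 probes above it on 1 or more arrays were tested. A gene is represented by its tested probe with the highest mean, and the 2506 genes with more probes held 7 with opposite calls. Of the 647 called genes with more than 1 tested probe, 204 had every probe called alike. For the rest, 1 or more further probes did not share the call. The 4 groups were fitted together in limma 3.58.1 (R 4.3.3) with contrasts for DR minus AL, Rapa + DR minus Rapa, and the difference of both. Simulated data of the same size, with independent noise and an equal spread in all groups, gave back 46 of 50 changes of 1.5-fold and 25 of 50 of 1.2-fold. Shifts shared by a whole array and unequal spreads between groups were not simulated. Array measures were compared by a permutation test with 100000 resamples. Alternatives covered scaling, background subtraction, filters, thresholds, array weights, covariates, the methods' analysis of variance, a replicate block and the omission of each DR or AL array.

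The gene lists and the choice of members were made with earlier results of these data known. Named genes were drawn from the 20 called genes with the largest change in each direction that lay above background on every DR or every AL array. They were also drawn from up to 5 called members of each list in each direction and the 5 with the largest difference of diet effects in each direction. Genes that the study discusses were a further source. Not every gene so chosen is named. Acadl, Hadhb, Mlxipl, Mup2, Nampt, Nr1d1, Per3, Sgk1 and Slc25a1 were added after their values were seen. The labels do not say that the mice were housed apart. Each limma SE and p-value rests on a spread between mice shared by all groups of the fit. The mice given rapamycin therefore enter the SE and p-value of DR minus AL too. The number of arrays limits the precision. Scan dates and array positions are not given in the sources used here.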

Additional observations from a re-analysis of the deposited data

Results flagged for a closer look

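For 10 of the genes named, the change with diet differed between mice with and without rapamycin by a limma test of that difference (Rapa + DR minus Rapa, less DR minus AL). The difference was positive for Cyp2b10, at 1.33 ± 0.29 (adjusted p = 0.011). It was negative for Creld2, at -1.34 ± 0.38 (adjusted p = 0.0403), Cyp51, at -1.06 ± 0.28 (adjusted p = 0.0324), Atp5pb, at -1.01 ± 0.27 (adjusted p = 0.0316), and Rps7, at -0.99 ± 0.19 (adjusted p = 0.00221). The mitochondrial dehydrogenase gene Acadm differed by -0.80 ± 0.19 (adjusted p = 0.0152), Rps6 by -0.69 ± 0.17 (adjusted p = 0.0243), Arpc1a by -0.52 ± 0.14 (adjusted p = 0.0321), Mrpl18 by -0.51 ± 0.11 (adjusted p = 0.0104) and Tuba1b by -0.48 ± 0.13 (adjusted p = 0.0316). Of these, Rps7, Rps6, Acadm, Atp5pb, Arpc1a, Mrpl18 and Cyp51 were called higher in DR than AL livers and were not called in Rapa + DR against Rapa livers. Tuba1b was lower in both pairs, and the sign of the Cyp2b10 change differed between them. For Cyp2b10 the medians in AL, DR, Rapa and Rapa + DR mice were 8.12, 7.86, 7.01 and 7.78. For Creld2 they were 8.74, 8.23, 9.61 and 8.31. In both genes the DR and Rapa + DR medians lay closer together than the AL and Rapa medians. Median levels in AL, DR and Rapa mice were 8.38, 9.71 and 9.90 for Atp5pb and 8.17, 9.41 and 9.66 for Cyp51. They were 12.17, 12.71 and 12.82 for Acadm and 8.39, 8.87 and 9.05 for Arpc1a. Without division by the array SD 10 probes had a negative difference called, and which named genes were among them is not given here.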

How the results depend on the processing

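Of 14435 probes, 1599 were called higher and 947 lower in DR than AL livers. Asking for medians more than 30% apart gave 921 and 520, and an adjusted p under 0.001 gave 589 and 375. Lower calls numbered 476 when arrays were only centred (no division by the SD) and 96 with no normalization. Higher calls in Rapa + DR than Rapa livers were 1692, and 2698 without that division. The difference of the diet effects was called positive for 192 and negative for 176 probes, 42 and 10 without division by the SD, and 339 and 359 with quantile normalization. The replicate numbers were not used to pair the mice. Deviations of same-numbered DR and AL mice from their group means correlated at -0.49 to 0.28 (median -0.12), above 0.1 in 2 of 11 pairs. Such correlations cannot show whether equal numbers share a cage, harvest or slide, since the sources do not give these. With the replicate number as a block 1565 probes were higher and 925 lower, and no named gene lost its call.
The change of Nr1d1, not called in any setting, turned negative with quantile normalization (-0.0098) and with background subtracted (-0.0138), and lay between -0.0472 and 0.1457 when single arrays were left out. That of Ghr was 0.0134 with no normalization. With no normalization alone, the lower calls of Agpat2, Alas2, Arntl, C4b, C9, Cidec, Clec4f, Clock, Cyp2c70, G0s2, Gstp2, Mlst8, Ppp1r3b, Stat5a and Tubg1 were also lost. The call of Pdk4 was lost there and without the filter on dim probes. Subtracting a background level ended the calls of Bdh1, Per3, Hspd1, Cyp7a1 and Cyp2b10. Dim probes have understated changes, since their signal is mostly background.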
